A study of Mus musculus with 6 samples.

Results

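The genes described here encode the vascular endothelial growth factor (VEGF) ligands Vegfa, Vegfb, Vegfc and Pgf, the receptors Kdr, Flt1 and Flt4, and the neuropilin co-receptors Nrp1 and Nrp2. They were chosen by symbol, and all 9 were found among the 24421 genes of the deposited count table. The 6 libraries came from cultured mouse endothelial cells of brain origin that were recovered by cell sorting and sequenced as polyadenylated RNA. In 3 libraries, labelled KO, the genotype is given as Fli-1 knockout, and in the other 3, labelled WT, as WT; replicates are numbered 1 to 3 in each group. The labels of all 6 samples, WT included, list 4-OHT (4-hydroxytamoxifen, a ligand of tamoxifen-dependent recombinases) as the inducer of Fli-1 deletion, and both groups had spent 6 days with a vascular niche in co-culture. The recombinase, its promoter, the mouse strain, and whether replicates were separate cultures are not stated there, so p-values measure the spread between these libraries, which may be technical.

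VEGF ligands are secreted dimers that bind receptor tyrosine kinases on endothelial cells. Kdr (VEGFR2) carries most of the growth and permeability signal of VEGF-A; Flt1 (VEGFR1) binds VEGF-A, VEGF-B and placental growth factor (the product of Pgf) with high affinity but signals weakly, and a soluble splice form acts as a trap. Flt4 (VEGFR3) is the receptor of VEGF-C and is best known from lymphatic vessels and sprouting tips, while neuropilins bind VEGF isoforms together with the receptors and also bind class 3 semaphorins. Counts here are per gene, so the soluble and membrane forms of Flt1, and the splice forms of Vegfa, cannot be told apart.

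Total counts ranged from 17550185 to 21385951 per library. Fli1, the targeted gene, went against the labels: it was higher in the library labelled KO than in the same-numbered library labelled WT in 3 of 3 pairs, at 76.8, 111 and 77.4 against 45.3, 59.6 and 45.8 CPM (depth-scaled counts, with library totals adjusted by TMM factors). A count per gene includes exons outside a deleted part, so these counts do not check the deletion. Whether the labels of the groups were exchanged was not tested, and an exchange would reverse every direction below, which is that of the libraries labelled KO relative to those labelled WT. Endothelial markers were abundant: 14 of 14 passed the filter on low counts, with a summed level of 17633 to 19945 CPM in the libraries labelled KO and 16833 to 18806 CPM in those labelled WT. In the paired test described below 2 were higher in the libraries labelled KO (Emcn by 0.20 and Tek by 0.16 on the log2 scale). Robo4 was lower (-0.14) and 11 did not pass, which is 21.4% called against 8.81% of all tested genes. Of the 6 lymphatic markers, 3 passed the filter (Pdpn, Lyve1 and Reln) and 0 of them were called; Lyve1 had 98 to 159 counts per library, Pdpn was highest in KO 2 and WT 2 at 11.6 and 16.3 CPM, Prox1, the defining transcription factor, had at most 5 counts, and Ccl21a had 0 in all 6. Fibroblast markers summed to 131 to 1417 CPM, and 4 of the 16 blood cell markers were abundant enough to be tested. Of these, Laptm5 (79.4 to 225 CPM) and Coro1a were higher in the libraries labelled KO in the paired test described below. The differences were 0.33 and 0.32 on the log2 scale (adjusted p = 5.36e-07 and 0.0336, edgeR). Cd68 (-0.10) and Runx1 (-0.003) did not pass (adjusted p = 0.836 and 0.985, edgeR). Thus 50% of the tested markers were called, against 8.81% of all tested genes. Spi1, Tyrobp and Cd3e, which were not tested, were at 0.

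Transcripts of every one of these genes were detected in all 6 libraries, with Pgf and Kdr at the top and Vegfc far below the rest. Levels between genes are compared as CPM per kilobase of annotated exon. This length covers the exons of all annotated transcripts of a gene, and the order of genes depends on it. Pgf stood highest, with a median of 303 CPM per kilobase over the 6 libraries (range 179 to 333), above 99.3% of the genes ranked by level. Kdr followed at 88.4 (80.2 to 92.7), then Nrp2 at 38.5 (35.3 to 42.4) and Flt4 at 32.2 (30.8 to 33.2). Flt1 at 15.1 (11.4 to 19.9), Nrp1 at 14.2 (13.5 to 20.4) and Vegfa at 12.1 (9.77 to 24.2) lay together. Vegfb had a median of 8.96 (8.57 to 9.42) and Vegfc of 0.853 (0.646 to 1.28). Per kilobase, Flt1 and Nrp1 did not differ beyond their spread, with Flt1 the higher in 3 of 6 libraries. Before division by length the mean of Flt1 was the higher, at 217 against 155 CPM (KO) and 200 against 157 CPM (WT). The ranges of Nrp1 and Vegfa per kilobase overlapped as well, and all other neighbours in this order had ranges that did not overlap.

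**Figure D1:**
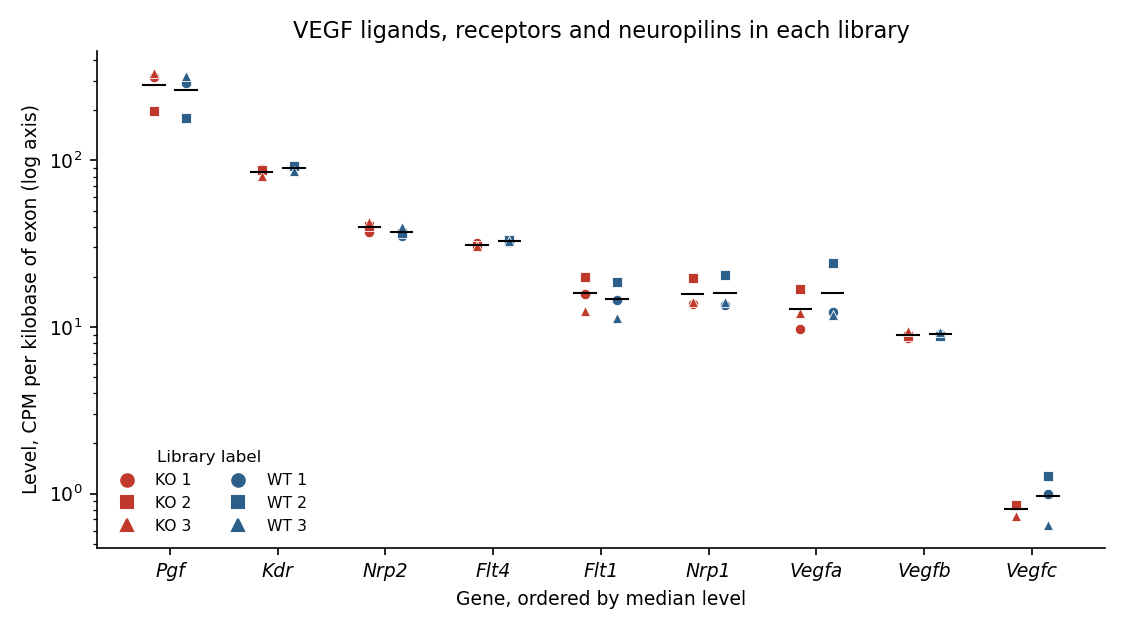
Level of each gene in each library, in CPM per kilobase of exon on a log axis; colours give the group label, symbols the replicate number and black bars the group means. Pgf and Kdr are highest in all 6 libraries, Vegfc is lowest, and within most genes the libraries of the 2 groups cover the same range.

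None of the 9 genes passed in the comparison of the groups or in the paired test with all 6 libraries; Vegfa passed under 3 alternatives of the paired test, given with its values below. The fitted fold between groups lay between 0.819 for Vegfa and 1.09 for Flt1 when same-numbered libraries were compared with each other. In the designed comparison of 3 against 3 libraries, edgeR called 0 of the 9 at an adjusted p under 0.05, against 0.00784% of the 12753 genes tested, and 0 of the 9 had an unadjusted p under 0.05, against 4.79%; DESeq2 and limma-voom called 0 as well. With the replicate number as a block, which compares same-numbered libraries and is called the paired test below, edgeR called 0 of the 9, against 8.81% of all tested genes (4.81% higher and 4.01% lower), and DESeq2 called 0. In that test 4 of the 9 (Flt1, Nrp2, Pgf and Vegfa) had an unadjusted p under 0.05, against 20.8% of all genes. Differences shared 1 sign across the 3 pairs for 5 of the 9, against 40.7%, and the groups did not overlap for 1 of the 9, against 10.2%. The median absolute log2 fold change was 0.10 over the 9 genes and 0.08 over all genes.

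**Figure D2:**
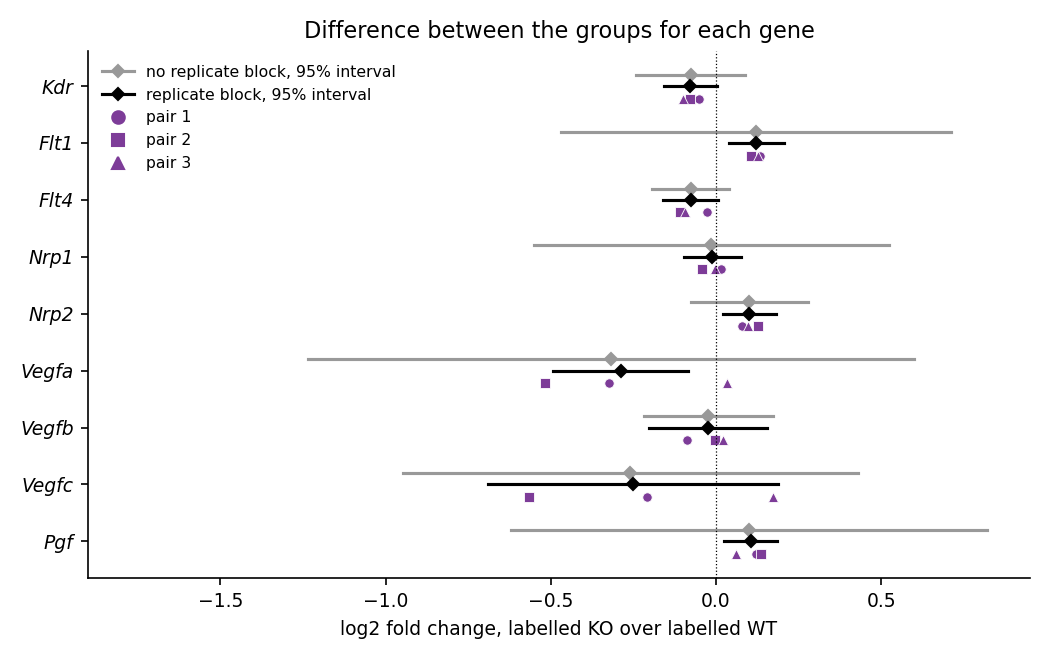
Log2 fold change of libraries labelled KO over libraries labelled WT for each gene, with 95% intervals from the comparison without the block (grey) and with it (black), and the difference within each same-numbered pair (purple). The paired intervals are narrow for the receptors, for Nrp1, Nrp2 and Pgf, and wide for Vegfa and Vegfc, whose pair 3 lies on the other side of 0 from pairs 1 and 2.

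Among the receptors, Kdr (ENSMUSG00000062960, GRCm38 chromosome 5, 75932827 to 75978458, minus strand) had 807, 790.1 and 724.5 CPM in the libraries labelled KO 1, 2 and 3 and 837, 834 and 777 CPM in those labelled WT. The KO value was the lower in every pair, but the groups overlapped, since KO 1 and KO 2 lay above WT 3. The means were 774 ± 43.5 and 816 ± 33.8 CPM (SD, n = 3 each). The log2 fold change was -0.08 ± 0.070 (SE; 95% interval -0.24 to 0.09; adjusted p = 0.996, edgeR) without the block and -0.08 ± 0.040 (95% interval -0.16 to 0.003; adjusted p = 0.265) in the paired test. As a fold, the paired interval runs from 0.897 to 1.00.

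Flt1 (ENSMUSG00000029648, chromosome 5, 147561604 to 147726011, minus strand) varied more between replicate numbers. It had 214, 269 and 168 CPM in KO 1, 2 and 3 and 195, 250.3 and 154 CPM in WT 1, 2 and 3. Number 2 was the highest and number 3 the lowest in both groups, and the KO library was the higher in each pair, by 0.13, 0.11 and 0.13 on the log2 scale. Across the groups the ranges overlapped widely, and the means were 217 ± 50.6 and 200 ± 48.4 CPM (SD, n = 3). Without the block the log2 fold change was 0.12 ± 0.24 (SE; 95% interval -0.47 to 0.71; adjusted p = 0.996). In the paired test it was 0.12 ± 0.041 (95% interval 0.04 to 0.21, not adjusted for the number of genes), with an unadjusted edgeR p of 0.00471 and an adjusted p of 0.0526, which misses the threshold of 0.05. Under the paired alternatives the adjusted p ranged up to 0.332 (without pair 2).

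Flt4 (ENSMUSG00000020357, chromosome 11, 49609263 to 49652739, plus strand) was the most even gene of the family. It had 262, 253 and 253 CPM in the libraries labelled KO and 267, 273 and 270.3 CPM in those labelled WT, so that its groups did not overlap. The lowest library labelled WT exceeded the highest labelled KO by a small margin only. The means were 256 ± 5.16 and 270.2 ± 2.95 CPM (SD, n = 3), and the paired log2 fold change was -0.08 ± 0.041 (SE; 95% interval -0.16 to 0.01; adjusted p = 0.292, edgeR). This fold is of the size of that of Kdr, and neither passed.

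Stretches of the promoters of Kdr and Flt1 are shown because Fli1 belongs to the ETS family, whose members bind sites around the core GGAA, and because these receptors are classical ETS-regulated endothelial genes. Each runs from 250 bases before to 50 bases after the RefSeq transcription start (GRCm38.p6), 5′ to 3′ on the gene's strand, at chr5:75978406-75978705 and chr5:147725962-147726261, both minus. Capitals mark GGAA on the strand shown or its complement TTCC.
Kdr: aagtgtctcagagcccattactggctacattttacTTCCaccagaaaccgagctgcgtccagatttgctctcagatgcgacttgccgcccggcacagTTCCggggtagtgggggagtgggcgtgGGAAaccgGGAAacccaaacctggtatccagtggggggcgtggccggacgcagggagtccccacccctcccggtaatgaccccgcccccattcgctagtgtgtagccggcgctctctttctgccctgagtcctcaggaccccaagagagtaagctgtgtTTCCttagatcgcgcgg
Flt1: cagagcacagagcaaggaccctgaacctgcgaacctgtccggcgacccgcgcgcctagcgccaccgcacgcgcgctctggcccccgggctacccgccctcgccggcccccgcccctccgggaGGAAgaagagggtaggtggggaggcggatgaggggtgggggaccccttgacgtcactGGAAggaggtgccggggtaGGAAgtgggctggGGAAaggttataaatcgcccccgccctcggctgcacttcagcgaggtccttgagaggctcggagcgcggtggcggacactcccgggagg

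The Kdr stretch held 5 matches to GGAA on either strand and the Flt1 stretch 4, which lay at -128, -71, -52 and -39 from the start (leftmost base). The core is uninformative on its own, since 96.0% of 32851 mouse promoter stretches of this length held it. Of longer ETS sites that contain the core, only forms with C before it were searched for. CGGAAG (16.9% of stretches) and CCGGAAGT (3.89%) were found in none of the 11 stretches available for the 9 genes. Forms with another base before the core were not counted, such as aGGAAg, which can be read in the Flt1 stretch above. The Flt1 stretch also held the cAMP response element TGACGTCA at -81, found in 1.79% of stretches and in no other gene of the family; this motif was searched for after the sequence was seen. Over the other genes GGAA matched 5 times for Nrp1, 6 and 3 times for the 2 stretches of Vegfa, and at most 2 times in each stretch of Flt4, Nrp2, Vegfb, Vegfc and Pgf. The hypoxia response element core ACGTG, present in 19.6% of stretches, occurred 1 time, at -211 in the downstream stretch of Vegfa. A match says only that the letters are present, and binding was not measured.

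Among the neuropilins, Nrp2 was the more abundant per length in all 6 libraries. Nrp1 (ENSMUSG00000025810, chromosome 8, 128358604 to 128503363, plus strand), the co-receptor best known from arterial endothelium and from tip cells, had 134, 194 and 138 CPM in the libraries labelled KO 1, 2 and 3 and 132, 199 and 139 CPM in those labelled WT. Within each pair the libraries nearly coincided, and number 2 stood above the others in both groups. The means were 155 ± 33.3 and 157 ± 37.0 CPM (SD, n = 3). The paired log2 fold change was -0.01 ± 0.042 (SE; 95% interval -0.10 to 0.07; adjusted p = 0.925, edgeR), or folds of 0.936 to 1.05. The miRNA gene Mir1903 shares 80 exonic bases with it and had 0 counts.

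Nrp2 (ENSMUSG00000025969, chromosome 1, 62703285 to 62818695, plus strand), best known from veins and lymphatic vessels, had 441, 475 and 503 CPM in the libraries labelled KO and 418, 435 and 469.5 CPM in those labelled WT. The KO library was the higher in each pair, with overlap across pairs. The means were 473 ± 30.6 and 441 ± 26.3 CPM (SD, n = 3), and the paired log2 fold change was 0.10 ± 0.040 (SE; 95% interval 0.02 to 0.18; adjusted p = 0.117, edgeR). The fold was of the same size as that of Flt1 and Pgf.

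Pgf (ENSMUSG00000004791, chromosome 12, 85166635 to 85177790, minus strand), which encodes a ligand of Flt1 that does not bind Kdr, was the leading ligand transcript. It had 916, 571 and 967 CPM in KO 1, 2 and 3 and 842, 519.7 and 927 CPM in WT 1, 2 and 3. Number 2 was the lowest in both groups, and the KO library was higher in every pair, by 0.12, 0.14 and 0.06 on the log2 scale. The means were 818 ± 215 and 763 ± 215 CPM (SD, n = 3). The paired log2 fold change was 0.11 ± 0.040 (SE; 95% interval 0.02 to 0.19; adjusted p = 0.101, edgeR), against 0.10 ± 0.29 (adjusted p = 0.996) without the block.

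Vegfa (ENSMUSG00000023951, chromosome 17, 46016993 to 46032369, minus strand), the main ligand of Kdr, had 41.9, 72.4 and 51.6 CPM in the libraries labelled KO and 52.4, 104 and 50.4 CPM in those labelled WT. The library WT 2 stood far above the rest, KO 2 was second, and pair 3 differed little and in the other direction. The means were 55.3 ± 15.6 and 68.9 ± 30.2 CPM (SD, n = 3). The paired log2 fold change of -0.29 ± 0.090 (SE; 95% interval -0.49 to -0.08) did not pass (adjusted p = 0.0974, edgeR), and the differences within pairs 1, 2 and 3 were -0.32, -0.52 and 0.03.

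The call for Vegfa differed between alternatives. Without pair 1 the paired log2 fold change was -0.28 (adjusted p = 0.0153, edgeR), without pair 3 it was -0.43 (adjusted p = 1.28e-09), and with no filter on low counts it was -0.29 (adjusted p = 4.71e-06). Without pair 2 it was -0.15 (adjusted p = 0.37), and with DESeq2 it was -0.27 (adjusted p = 0.661). Fits on 2 pairs have 1 residual degree of freedom of their own and rest on a spread pooled over genes. The paired test with all 6 libraries rests largely on such pooling as well. Fibroblast markers were highest in pair 2 as well: their sum was 1004 and 1417 CPM in KO 2 and WT 2, against 131 and 188 CPM in pair 1 and 433 and 468 CPM in pair 3. In pair 3 this sum was lower in the library labelled KO, whereas Vegfa was slightly higher there. In this list of 13 genes (Tcf21 at 0), 4 of 9 tested members fell and 1 rose in the paired test (55.6% called, against 8.81% of all genes); 6 fell without pair 1 or pair 3, and 0 were called with DESeq2. Among 12 tested mural cell markers (pericytes and smooth muscle) 3 fell and 0 rose (25% called, against 8.81% of all genes). The list, mostly Tagln and Acta2, summed to 1634, 2105 and 2139 CPM in KO 1, 2 and 3. In WT 1, 2 and 3 it summed to 1623, 2492 and 1808 CPM. Those that fell, Cspg4, Notch3 and Pdgfrb, were highest in the libraries numbered 2. In pair 3 Cspg4 (4.69 against 4.49 CPM) and Pdgfrb (11.4 against 10.2 CPM) were slightly higher in the library labelled KO. Notch3 (1.51 against 3.16 CPM) was lower there. The part of fibroblasts and mural cells in the Vegfa values was not tested. In such bulk samples fewer cells of a type and less RNA per cell cannot be told apart.

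The remaining ligands were low. Vegfb (ENSMUSG00000024962, chromosome 19, 6982473 to 6987651, minus strand), a ligand of Flt1, had 13.8, 14.1 and 15.1 CPM in the libraries labelled KO and 14.6, 14.2 and 14.9 CPM in those labelled WT, on 261 to 306 counts per library. No library stood apart, and the paired log2 fold change was -0.02 ± 0.089 (SE; 95% interval -0.20 to 0.16; adjusted p = 0.921, edgeR).

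Vegfc (ENSMUSG00000031520, chromosome 8, 54077606 to 54187096, plus strand), a ligand of Flt4, had 44, 39 and 31 counts in KO 1, 2 and 3 and 51, 66 and 31 counts in WT 1, 2 and 3, or 1.58 to 3.14 CPM. At 31 counts the exact 95% Poisson interval runs from 21.1 to 44.0 counts, which covers counting error only. The paired log2 fold change was -0.25 ± 0.22 (SE; 95% interval -0.69 to 0.19; adjusted p = 0.570, edgeR), or folds of 0.619 to 1.14, and no difference was detectable at this depth. The other Flt4 ligand gene, Vegfd, appears in the table under its older symbol Figf and had 22 to 48 counts per library.

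**Figure D3:**
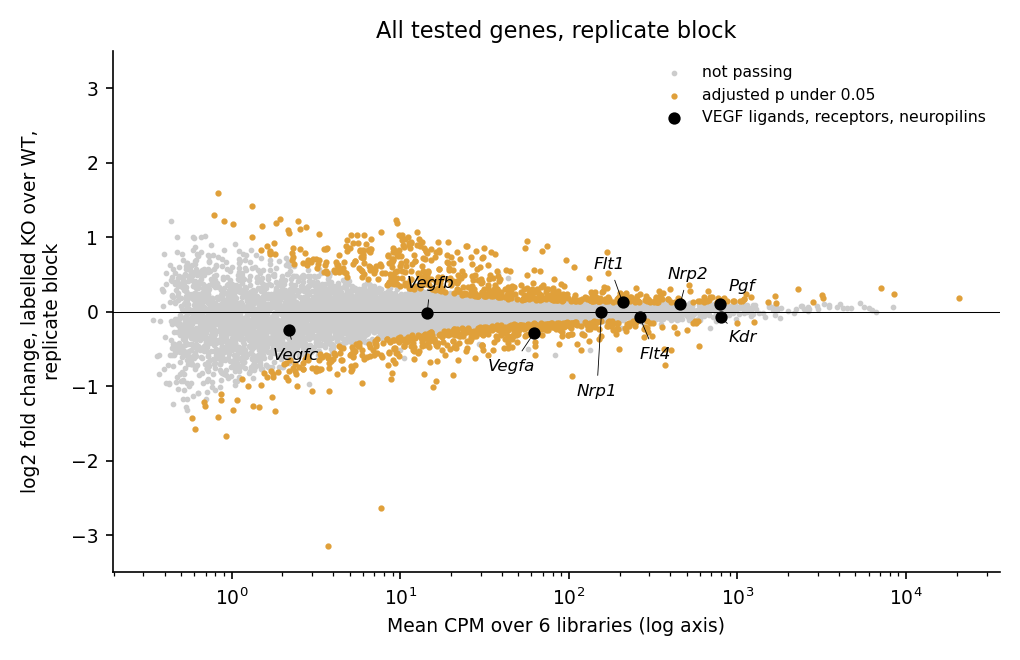
Log2 fold change in the paired test against mean CPM (log axis) for all 12753 tested genes; genes passing an adjusted p of 0.05 are in orange and the 9 VEGF genes in black. The 9 genes lie close to 0, at the inner edge of the genes that passed or within those that did not.

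The replicate number took more of the variation than the group for 8 of the 9 genes, the exception being Flt4. The number has more levels than the group, and its median share over all tested genes was the larger as well. Of the sum of squares of log2 CPM over the 6 libraries, the number took 99.7% for Nrp1, 97.6% for Pgf, 95.4% for Flt1 and 83.2% for Vegfa, against a median of 61.5% over all tested genes. The group took 0.0392%, 2.18%, 4.56% and 9.79% of it, against a median of 11%. Kdr and Nrp2 lay in between, with 68.1% and 66.5% for the number and 29.9% and 32.3% for the group. These shares of the number, like those of Vegfb (70.3%) and Vegfc (63.8%), were not far from the median of all genes. Flt4 was the reverse, with 2.59% for the number and 80.2% for the group, on a total range of 1.08-fold between libraries.

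Several of these patterns shared a contrast between number 2 and the others. On the log2 scale the mean of number 2 exceeded that of numbers 1 and 3 by 0.82 for Vegfa, 0.53 for Nrp1 and 0.52 for Flt1. Pgf was lower there, at -0.74. For Vegfc the value was 0.37, but it came from WT 2 (66 counts), since KO 2 (39 counts) was not above KO 1 (44 counts). Kdr (0.05), Flt4 (-0.0008), Nrp2 (-0.01) and Vegfb (-0.04) hardly differed. The library pair with the highest Vegfa thus had the lowest Pgf in both groups. The fibroblast sums given above were highest in the same pair, and their part in this was not tested.

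**Figure D4:**
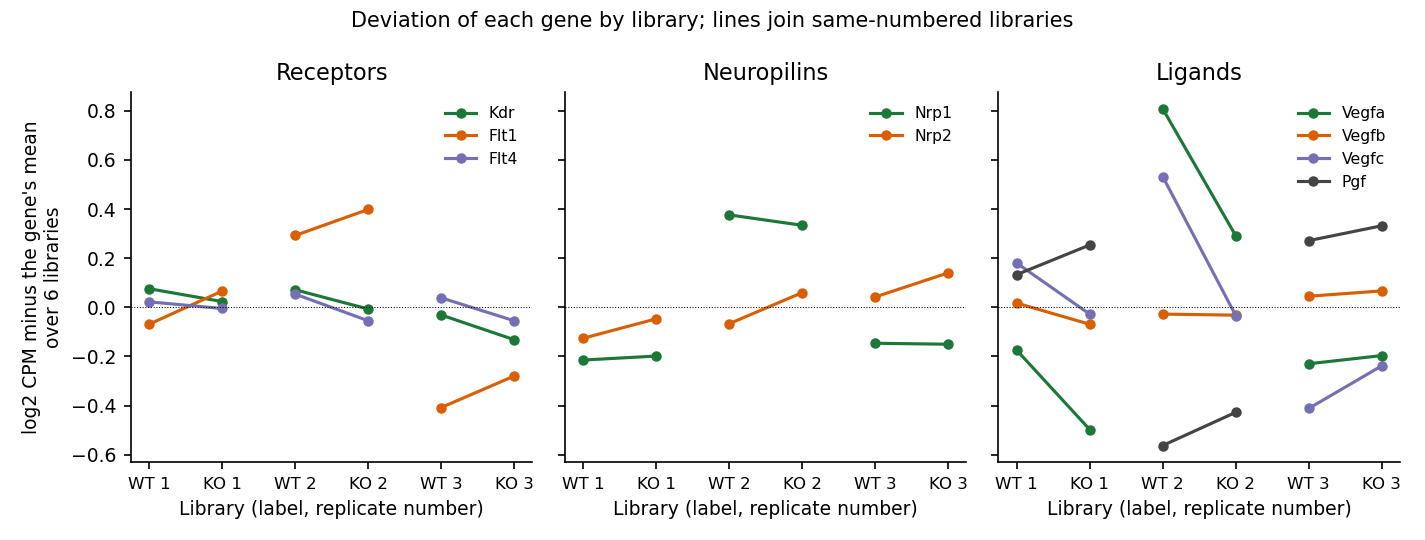
Deviation of each gene's log2 CPM from its mean over the 6 libraries, with lines joining the libraries of the same replicate number. Vegfa, Nrp1 and Flt1 are high and Pgf is low in the libraries numbered 2, while Kdr, Flt4, Nrp2 and Vegfb stay close to 0.

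The make-up of the ligand pool followed. Pgf made up 83.9% to 94.3% of the summed ligand level per kilobase in the 6 libraries, with the lowest shares in WT 2 (83.9%) and KO 2 (88.1%). Vegfa made up 11.3% and 7.58% in those libraries and 2.92% to 3.92% in the others. Among the receptors the shares were steadier, with Kdr at 63.3% to 66.4%, Flt4 at 22.3% to 25.2% and Flt1 at 8.75% to 14.4%.

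Balances between family members were compared as ratios of levels per kilobase. The Flt1 to Kdr ratio, the balance of the weakly signalling against the main receptor, was 0.177, 0.228 and 0.155 in KO 1, 2 and 3 and 0.156, 0.201 and 0.133 in WT 1, 2 and 3. It was higher in the library labelled KO in 3 of 3 pairs, but the groups overlapped. The difference in mean log2 ratio was 0.20, with SDs of 0.28 and 0.30 (exact two-sided permutation p = 0.5, n = 3 each); it was 0.05 without KO 2, 0.06 without WT 3, 0.32 without KO 3 and 0.36 without WT 2. The Nrp1 to Nrp2 ratio, 0.333 to 0.493 in the libraries labelled KO and 0.358 to 0.555 in those labelled WT, was lower in KO in 3 of 3 pairs, with a difference of -0.11 (exact permutation p = 0.6). The Vegfa to Pgf ratio, 0.031 to 0.086 and 0.0369 to 0.135, was lower in KO in 3 of 3 pairs as well, with a difference of -0.37 (exact permutation p = 0.5). Over the 3 ratios the smallest exact p that 3 against 3 libraries can give is 0.1, and within 3 pairs it is 0.25, which each ratio reached. These ratios are made of the values above, and none passed.

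The genes around the receptors were described through 6 lists, drawn up with earlier results of these data known. All calls come from the paired test; in the comparison without the block 0 genes of these lists passed with edgeR. Adaptors and kinases that carry the signal of Kdr into the cell moved little: of 43 tested, 2 rose, 2 fell and 39 did not pass, which is 9.30% called against 8.81% of all genes, with a median log2 fold change of -0.01. Nos3, the endothelial nitric oxide synthase that Kdr signalling activates, rose by 0.15 from 287 ± 73.2 to 316 ± 71.1 CPM (SD, n = 3; adjusted p = 0.0199). Vav3, a guanine nucleotide exchange factor, fell by 0.35, and Prkcd, a protein kinase C, fell by 0.18. Prkca, another protein kinase C, rose by 0.21 and is named only because it completes the calls. Without pair 2, 0 of this list rose and 1 fell, with Nos3 and Prkcd losing their calls; without pair 1 or pair 3, 1 rose and 1 fell, and DESeq2 called 0.

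Of 28 genes for trafficking and partners of the receptors, 4 rose, 0 fell and 24 missed the threshold (14.3% called against 8.81% of all genes, median 0.0048). Efnb2, the ephrin ligand that promotes internalisation of Kdr and Flt4, rose by 0.20, from 185 ± 35.4 to 212 ± 29.4 CPM (SD, n = 3; adjusted p = 0.00137). Ptprb, the vascular phosphatase that restrains Kdr, also rose by 0.20, and Itgav and Itgb3, the subunits of the integrin that cooperates with Kdr, rose by 0.24 and 0.13. Without pair 2, 1 of them rose, with Efnb2 and Ptprb losing their calls. Scaled by library totals only, the list had 3 higher and 3 lower. Itgb3 was chosen after its values were seen, as was Cdh5. Cdh5, the junctional cadherin that associates with Kdr, was at 4777 ± 361 and 4609 ± 209.9 CPM (SD, n = 3) and did not pass (adjusted p = 0.550).

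The list with the largest share of calls held genes that VEGF is known to induce. Of 30 tested, 4 rose, 5 fell and 21 missed the threshold (30.0% called against 8.81% of all genes, median -0.02). Since the list was drawn up with earlier results of these data known, this share is no test of a VEGF response. Egr1, an immediate early transcription factor, was at 74.0, 80.1 and 68.3 CPM in the libraries labelled KO and 154, 137 and 114 CPM in those labelled WT. The groups did not overlap, and it fell by 0.86 ± 0.052 (log2, SE; adjusted p = 9.48e-15; adjusted p = 0.436 without the block). Ptgs2, the inducible cyclooxygenase, fell by 0.72, the phosphatase Dusp1 by 0.28, the protease Adamts1 by 0.29 and the homeobox factor Hlx by 0.19.

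The members that rose included the leukocyte adhesion molecules Icam1, Vcam1 and Sele, by 0.32, 0.28 and 0.65, and the guidance receptor Unc5b by 0.19. Other members did not pass, among them 4 genes known from endothelial tip cells, as is Unc5b, which rose: Apln was at 6607 ± 1411 and 6669 ± 1548 CPM, Angpt2 at 4518 ± 448 and 4387 ± 386 CPM, Esm1 at 695 ± 67.4 and 729.5 ± 18.1 CPM, and Dll4 at 447 ± 82.8 and 437 ± 61.1 CPM (SD, n = 3, libraries labelled KO first). Without pair 2, 3 of the list rose and 5 fell; library totals only gave 4 and 7. Dusp1, Adamts1, Hlx, Vcam1, Sele, Unc5b and these 4 genes were chosen after their values were seen.

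Of 24 other family members and VEGF-binding secreted or surface proteins, 3 rose, 3 fell and 18 missed the threshold (25% called against 8.81% of all genes, median 0.06). Sdc4, Gpc1 and Sdc1, which encode heparan sulfate proteoglycans, fell by 0.33, 0.41 and 0.22. Hspg2, Sdc3, Agrn and Sdc2, which encode such proteoglycans too, did not pass, with log2 fold changes of 0.11, 0.09, 0.04 and 0.003. Ext1, an enzyme of heparan sulfate synthesis, rose by 0.17. Thbs1, a matrix protein that counters VEGF signalling, rose by 0.24, from 7722 ± 229.7 to 9145 ± 755 CPM (SD, n = 3; adjusted p = 7.05e-05), and the semaphorin Sema3e by 0.26. Gpc1 and Sdc1 were highest in the libraries numbered 2, as were the fibroblast sums, and Sema3e was higher in 2 of 3 pairs. Without pair 2, 2 of the list rose and 1 fell, with Ext1 losing its call. Gpc1, Sdc1, Hspg2, Sdc3, Agrn, Sdc2 and Sema3e were chosen after their values were seen.

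Of 19 hypoxia genes, chosen as regulators of Vegfa and Flt1 or as common targets of the same factors, 1 rose and 1 fell. This is 10.5% called, near the 8.81% of all genes, with a median of -0.003. Ndrg1, a stress-induced gene, fell by 0.39, with 93.2, 171 and 79.8 CPM in KO 1, 2 and 3 and 121, 226 and 104 CPM in WT 1, 2 and 3, so that it too was highest in number 2. Epas1, which encodes the hypoxia factor HIF-2α, rose by 0.14 (not without pair 2, nor scaled by library totals only), and Hif1a, with 431 ± 63.5 and 464 ± 90.9 CPM (SD, n = 3), did not pass (adjusted p = 0.136). Of 24 transcription factors linked to the receptor genes, 1 rose (Fli1, the targeted gene, by 0.81) and 3 fell. Those that fell were Ets2 by 0.24, Lmo2 by 0.31 and Sox7, chosen after its values were seen, by 0.20. With Fli1 counted, 16.7% were called against 8.81% of all genes, with a median of -0.02. Without pair 2, 1 rose and 2 fell, and without pair 1, 3 rose and 4 fell. The proliferation list moved with the group in the paired test, with 20 of 20 genes higher, against 4.81% of all genes, and a median of 0.89. Without the block 0 of them passed. Summed levels were 402 to 668 CPM in the libraries labelled KO and 232 to 367 CPM in those labelled WT. The part of proliferation in the values of the VEGF lists was not tested.

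**Figure D5:**
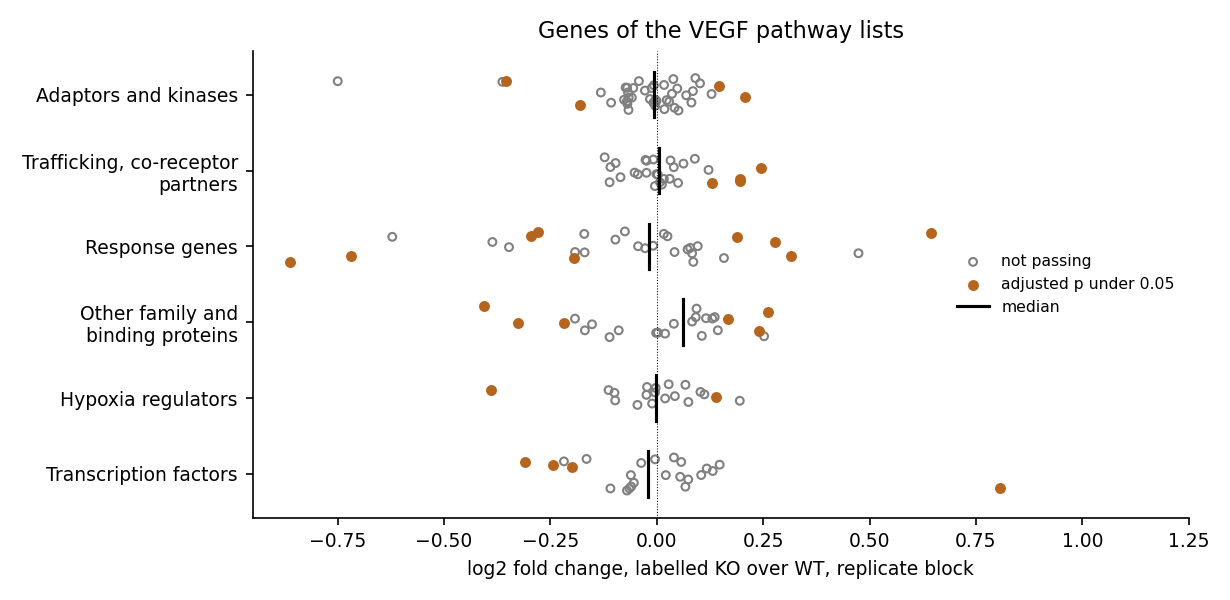
Log2 fold change in the paired test of each tested gene of the 6 VEGF pathway lists, with genes passing an adjusted p of 0.05 filled and the list median as a black bar. The medians lie near 0, and the response genes spread farthest in both directions, from Egr1 at -0.86 to Sele at 0.65; the point at 0.81 among the transcription factors is Fli1.

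Likeness of pattern was measured as the root mean square difference between centred log2 CPM profiles over the 6 libraries, which share same-numbered pairs. For Flt1 the nearest of 8985 genes with a mean of at least 10 CPM were Tifa (0.021) and Ext1 (0.031), against a spread of Flt1 itself of 0.288. For Nrp1 they were Spidr (0.034) and Cd9 (0.036), and for Pgf Mtmr10 (0.048) and Fam102a (0.050). For Vegfa they were Anxa1 (0.092) and Clec2d (0.094), against its own spread of 0.43. For Kdr the nearest were Sos1 (0.012) and Zfx (0.014), for Flt4 Arhgap23 and Tmem43 (0.017 each), and for Nrp2 Atp5o (0.012) and Pgam5 (0.024), all against spreads under 0.1. Vegfc was nearest to Gpc4 (0.103) and Fcho2 (0.115). Within the family the smallest difference was between Kdr and Flt4 (0.053), and the largest between Vegfa and Pgf (0.773). The measure is not scaled by spread, so genes that hardly vary come out close. The spreads of Kdr and Flt4 were 0.07 and 0.043, so their small difference does not show a shared pattern.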

How the data were processed

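The deposited table holds raw counts per gene symbol. For the authors' steps, STAR 2.6.1d, Trim Galore 0.6.4, FastQC 0.11.8, featureCounts and Subread 1.6.4 are listed, per the submitters' processing notes, for GRCm38 (mm10); annotation, strand setting and multi-mapping were not stated there. Libraries were made with 1 of 2 TruSeq kits, unstranded or stranded, per the labels' protocols, which do not assign kits to samples. Depth was 17550185 to 21385951 counts per library, and every pair of libraries differed beyond sampling noise (chi-square over its degrees of freedom, 5.44 to 40.7).

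The main test was run in edgeR 4.0.16 (R 4.3.3): filterByExpr (12753 genes kept, all 9 family members among them), TMM scaling, and the robust quasi-likelihood F test with Benjamini-Hochberg adjustment over all tested genes at 0.05. Intervals use the test's total degrees of freedom and are not adjusted. The median total was 40.8 in the paired test and 7.01 without the block. With 6 libraries, most of the paired total comes from a spread pooled over genes. The small p-values and narrow intervals of the paired test therefore do not rest on the 3 pairs of a gene alone. DESeq2 1.42.0 and limma-voom (limma 3.58.1) were alternatives. The paired test adds the replicate number as a block. Deviations from group means correlated at 0.776, 0.857 and 0.652 between same-numbered libraries, so the numbers were taken to pair them; the labels do not state this. Exon lengths and positions are from GENCODE M21 (GRCm38), in which 95.7% of symbols matched, and promoter sequences from RefSeq (GRCm38.p6). Members and lists were chosen with earlier results of these data known. Named genes were all 9 members, the 3 lowest p-values per list in the paired test, and the 2 nearest profiles per member (those of Vegfb are not reported here); others are stated as chosen afterwards.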

Additional observations from a re-analysis of the deposited data

How the results depend on the processing

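The replicate block changed no call of the 9 VEGF genes, and in the comparison without it none passed under any alternative run. With the block 1 gene, Vegfa, was called lower with no filter (-0.29), without pair 1 (-0.28) and without pair 3 (-0.43), so leaving out a pair gave 0 to 1 genes called lower; the cause was not tested. Over all genes, 0 were higher and 1 lower without the block, 613 and 511 with the replicate block, 12 and 7 with DESeq2, and 0 lower with limma-voom or at an FDR of 0.01. Dropping single libraries gave 0 to 1 lower. With the block, DESeq2 called 262 higher and 111 lower, an FDR of 0.01 gave 388 and 259, and leaving out a pair gave 339 to 603 and 205 to 600. The paired calls were 54.5% higher with TMM and 39.1% with library size alone, a scaling that moved the median of all genes by -0.03 and turned no VEGF gene's direction.

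Leaving out 1 library without the block gave log2 fold changes of -0.06 to 0.31 for Flt1, -0.20 to 0.19 for Nrp1, -0.56 to 0.10 for Vegfa, -0.06 to 0.0062 for Vegfb and -0.12 to 0.30 for Pgf. The ratio differences then ran from 0.05 to 0.36 for Flt1 to Kdr, from -0.28 to 0.08 for Nrp1 to Nrp2 and from -0.83 to 0.22 for Vegfa to Pgf, turning without WT 2 for the last 2 ratios and without KO 3 (0.01) for Nrp1 to Nrp2. With the block, Nrp1 turned to 0.004 without pair 2 and Vegfb to 0.0071 without pair 1. Of the 18 list genes named by the rule, 6 no longer passed without pair 2 and 5 with DESeq2. Counts were lowest for Vegfc (31 to 66 per library) and Vegfb (261 to 306), whose paired SEs were 0.22 and 0.089, against 0.040 for Kdr.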
